A study of Mus musculus with 2 samples.

Results

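Cytosolic ribosomal protein genes encode the proteins that, with ribosomal RNA, build the large and small subunits of the ribosome outside the mitochondrion. The members described here were chosen by symbol: Rpl or Rps followed by a digit, together with Rplp0, Rplp1, Rplp2 and Rpsa, without symbols ending in -ps and without the S6 kinases. This rule found 86 genes among 31053 features in the embryonic library and 31054 in the postnatal library. Of these, 77 encode core proteins, 46 of the large and 31 of the small subunit. The other 9 symbols mark paralogs or other proteins: Rpl3l, Rpl7l1, Rpl10l, Rpl22l1, Rpl36al, Rpl39l, Rps19bp1, Rps27l and Rps27rt.

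Each mature ribosome holds one copy of nearly every core protein, so their mRNAs are among the most abundant in a growing cell. Most of these mRNAs begin with a C followed by a run of pyrimidines, the 5′ terminal oligopyrimidine (TOP) tract, through which mTOR signalling controls their translation together. In the developing forebrain, radial precursors and later neural stem cells line the lateral ventricles, intermediate progenitors arise from them and divide, and neurons or migrating neuroblasts follow. Stem cells that leave the cell cycle are known for low protein synthesis, and activated progenitors for higher synthesis.

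The study followed this germinal zone, the ventricular-subventricular zone, across birth with 1 single-cell RNA library at each of 2 ages. The embryonic day 18 (E18) library was made from CD1 mice and held cortex as well as the dorsal germinal zone. The postnatal day 2 (P2) library, labelled n2, was made from mice of the genotype Emx1Cre;R26Eyfpfl/fl and held the dorsal and lateral germinal zone with the cortex removed. Emx1Cre acts in the cortical primordium, so EYFP marks cells of cortical descent. Neither library carried a treatment, and both held cells sorted as viable after papain digestion. The sources used here do not give the number of animals pooled. Age, dissection, mouse line and library cannot be told apart, and with 1 library per age no test was possible: every interval below is a 95% interval of counting error only.

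RefSeq promoter entries were listed for 66 of the 86 members, and for 57 of the 77 core genes, which is under the 80% coverage needed to describe the whole group by them. The windows below, on GRCm38.p6, run from 40 bases before the annotated start to 20 bases after it, 5′ to 3′ on the strand of the gene. They belong to members on which the results turn: Rps9, Rps26 and Rps6 were among the highest members in the progenitor clusters, Rpl31 and Rps21 differed in opposite directions between the ages, and Rpl22 and Rps27 are each shown with a paralog that behaved differently. Capitals mark a C within 5 bases of the start and the unbroken pyrimidines after it, at least 4 of them, on the strand of the gene; pyrimidines may also stand just before the marked C.
Rps9 (chr7:3704001-3704060, plus strand): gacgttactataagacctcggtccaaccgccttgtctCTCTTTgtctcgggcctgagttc
Rps26 (chr10:128626487-128626546, minus strand): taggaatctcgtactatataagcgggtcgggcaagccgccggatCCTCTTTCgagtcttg
Rps6 (chr4:86857348-86857407, minus strand): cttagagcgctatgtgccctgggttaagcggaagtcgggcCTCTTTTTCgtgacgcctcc
Rpl31 (chr1:39367811-39367870, plus strand): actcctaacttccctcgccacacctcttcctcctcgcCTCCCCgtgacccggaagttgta
Rps21 (chr2:180257339-180257398, plus strand): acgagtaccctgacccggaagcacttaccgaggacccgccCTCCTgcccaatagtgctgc
Rpl22 (chr4:152324396-152324455, plus strand): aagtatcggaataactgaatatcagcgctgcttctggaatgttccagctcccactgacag
Rpl22l1 (chr3:28805468-28805527, plus strand): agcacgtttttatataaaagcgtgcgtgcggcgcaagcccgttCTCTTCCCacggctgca
Rps27 (chr3:90213629-90213688, minus strand): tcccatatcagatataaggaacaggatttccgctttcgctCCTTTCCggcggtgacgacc
Rps27l (chr9:66946046-66946105, plus strand): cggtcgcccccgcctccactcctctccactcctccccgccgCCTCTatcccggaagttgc

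The marked C lay at the annotated start in Rps6, Rps21 and Rps27, and within 5 bases of it in Rps9, Rps26, Rpl31, Rpl22l1 and Rps27l. No such run lay near either of the 2 listed starts of Rpl22, of which the first is shown. The annotated Rpl22 gene begins at chr4:152325742, downstream of the window shown and within the promoter entry of the second start. The window shown is therefore not that of the start nearest the annotated gene start. For Rps9, Rps26, Rps6 and Rpl22l1 the annotated gene start also lay outside the window shown, upstream of it. That of Rps26 is at chr10:128626747. The starts used here are those of the promoter entries. Over all 27025 genes with an entry, 3.01% had such a C at the start itself and 21.2% within 5 bases, so the looser match is common. A match is a description of these letters: the paralogs Rpl22l1 and Rps27l, which were lower in neurons, hold the run as well. All 77 core genes had a position in the mouse annotation (GRCm38), spread over 19 chromosomes with 14 on chromosome 7, and their median transcript length was 729 bases against 2272 over 21864 coding genes.

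The E18 library had 2922 barcodes and 19986915 UMIs, of which 2475 cells were kept, and the P2 library 2778 barcodes and 42572208 UMIs, of which 2298 were kept. The libraries shared 0 barcodes. Median UMIs per kept cell were 6566 at E18 and 12525 at P2. Clusters were built without the members and named from marker lists. The E18 radial precursors (94 cells) were led by Aldoc, Fabp7 and Mt3, and the intermediate progenitors (96 cells) by Eomes and Neurog2. The P2 stem cells (78 cells) were led by Aldoc but also by the astrocyte markers Sparcl1 and Slc1a2, and astrocyte markers summed to 3073 counts per 1000000 UMIs (CPM) in them against 1150 CPM in the E18 radial precursors. The P2 maturing astrocytes (50 cells) were close to the P2 stem cells. Stem cell markers summed to 24554 CPM in these astrocytes against 25562 CPM in the stem cells, and astrocyte markers to 3617 against 3073 CPM. These sums do not set the 2 classes clearly apart, so the P2 stem cell class may hold astrocytes. A P2 cluster of 65 cells received the name inhibitory intermediate progenitor, with Dll1 and Dll3 among its 10 leading genes. It was also led by Olig1 and Olig2, and oligodendrocyte precursor markers summed to 4085 CPM in it against 5483 CPM in the oligodendrocyte lineage cells, so it is called the Dll1/Olig2 progenitor cluster here.

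The members together took 17.5% of the UMIs of kept E18 cells and 13.0% of those of kept P2 cells. In the E18 library 1 member, Rpl10l, had no UMI, 3 members including it had fewer than 100 UMIs and 83 had 100 or more, and the P2 library gave the same counts. Rpl10l, Rpl3l and Rpl39l, paralogs known from testis or muscle, were the members at or near 0. The 9 features ending in -ps, named pseudogenes, held UMIs equal to 0.0548% of the member UMIs at E18 and 0.0432% at P2. Many members have near-identical processed copies elsewhere in the genome, and the sources used here do not give how reads were divided between copies. The 5 members with most UMIs took 11.5% of member UMIs at E18 and 10.6% at P2. They were Rpl41, Rpl13, Rplp0, Rps19 and Rpl23a at E18, and Rps29, Rpl13, Rps24 and Rpl41 were among them at P2.

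The first question was how the share of UMIs from these genes ran from progenitor to neuron at E18. The share was 18.2% in radial precursors (18.1 to 18.3), 19.4% in cycling cells (19.3 to 19.5) and 24.4% in excitatory intermediate progenitors (24.3 to 24.5). It was 15.9% in newborn excitatory neurons, 17.3% in upper-layer neurons, 16.9% in deep-layer neurons and 16.3% in inhibitory neuroblasts or interneurons. The order therefore was not a steady fall: the intermediate progenitor class stood above its neighbours on both sides, and the neuronal classes lay between 15.9% and 17.3%. The 36 oligodendrocyte lineage cells of this library, mostly precursors by their markers, had 26.0% (25.8 to 26.1), with a median of 17.9% in the shallower and 29.9% in the deeper cells. They came from 1 cluster of 56 cells that carried oligodendrocyte and microglia markers and was divided cell by cell; its 7 microglia had 23.6% and its 13 cells left unnamed 28.4%. The oligodendrocyte lineage and unnamed cells thus stood above the intermediate progenitors. Cells within a class varied far more than counting error. The middle 50% of radial precursors ran from 14.4% to 21.6%, that of intermediate progenitors from 21.9% to 26.7%, and that of newborn neurons from 14.3% to 17.1%.

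**Figure D1:**
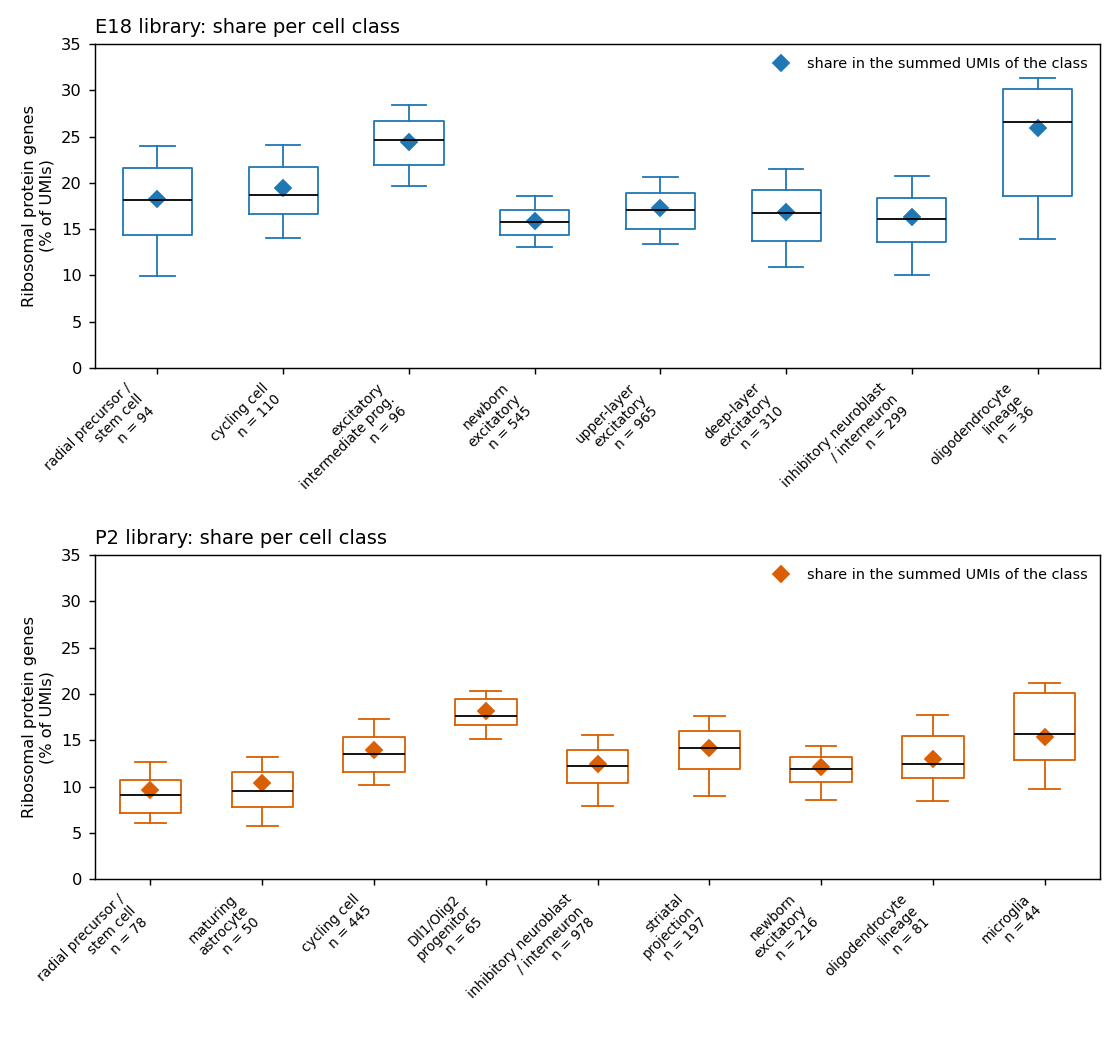
Share of UMIs from the 86 ribosomal protein genes (vertical axis, percent) per cell class in the E18 library (top) and the P2 library (bottom), for classes of at least 30 cells. Boxes span the middle 50% of cells with the median as a line, whiskers the 10th to 90th percentile, and diamonds the share in the summed UMIs of the class. The E18 intermediate progenitor class (24.4%) and the P2 Dll1/Olig2 progenitor cluster (18.1%) lie above the stem and neuronal classes of their library.

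At P2 the stem cells had the lowest share of the classes with at least 40 cells, 9.64% (9.59 to 9.69), and maturing astrocytes stood next at 10.4% (10.3 to 10.4). Cycling cells had 13.9%, the Dll1/Olig2 progenitor cluster 18.1% (18.1 to 18.2), inhibitory neuroblasts or interneurons 12.4% and striatal projection neurons 14.2%. Newborn excitatory neurons had 12.1% and oligodendrocyte lineage cells 13.0%. A class of 9 ependymal cells had 6.47%. The middle 50% of stem cells, 7.12% to 10.7%, lay wholly below that of the progenitor cluster, 16.7% to 19.4%, and overlapped slightly with that of neuroblasts, 10.3% to 13.9%.

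The E18 intermediate progenitors and the P2 Dll1/Olig2 cluster thus each stood above the stem and neuronal classes of their own library. In the P2 cluster oligodendrocyte precursor markers summed to 4085 CPM and inhibitory intermediate progenitor markers to 1706 CPM. Sums of different lists depend on how abundant the listed genes are, so they do not decide the lineage of this cluster. Whether it lies on the path to the neuroblasts was not tested. By class, the stem cells lay above the neurons at E18 and below them at P2. Single E18 neuronal clusters did not all lie below the radial precursors, which had 18.2%. An upper-layer cluster of 141 cells had 19.0% and a deep-layer cluster of 172 cells 18.2%. The other deep-layer cluster, of 138 cells, had 14.2%. The log2 ratio of postmitotic excitatory neurons over radial precursors at E18, all members summed, was -0.11 (-0.12 to -0.10). The log2 ratio of inhibitory neuroblasts over stem cells at P2 was 0.36 (0.36 to 0.37). These contrasts differ in lineage as well as in age, so the other lineage was taken in each library, a choice made after the class shares were seen. Inhibitory cells over radial precursors at E18 gave -0.16, and newborn excitatory neurons over stem cells at P2 gave 0.33, so each library kept its direction in both lineages. The difference between the libraries was not tested. Counted singly, 40 of the 83 members measured in both contrasts were lower in E18 neurons and higher in P2 neuroblasts, with counting intervals on opposite sides of 0. The same was true of 1.75% of 9748 genes. A counting interval narrows as UMIs rise, so abundant genes pass at small ratios, as Rps12 did at P2 (0.07). Most members are abundant, and no comparison with genes of like abundance was made, so the excess over 1.75% is not a measure of the group.

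A share depends on the other RNA of a cell as well as on the members. The median E18 radial precursor held 1155.5 member UMIs and 4932.5 other UMIs, and the median E18 excitatory neuron 1112 and 5706.5. The median P2 stem cell held 1623.5 member UMIs and 17266 others, against 1224.5 and 8262.5 in neuroblasts. At P2 the stem cells thus had more member UMIs per cell than neuroblasts but a smaller share, because their other UMIs were higher still. The Dll1/Olig2 progenitors, at 3223 member UMIs and 14928 others, exceeded the stem cells in member UMIs alone.

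Within most classes, cells with more UMIs also had a larger share. The shallower P2 stem cells had a median share of 8.11% and the deeper ones 9.81%, and P2 neuroblasts 11.5% and 12.7%. The median stem cell held 18962.5 UMIs and the median neuroblast 9452. In cells with 5000 to 15000 UMIs, 12 stem cells had 7.51% and 706 neuroblasts 12.6%, and the log2 ratio was 0.75.

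Across individual members, the E18 neurons stood slightly below radial precursors. Of 83 members with at least 50 UMIs over both classes, 59 were lower and 24 higher, with a median log2 ratio of -0.11 against 0.05 over all genes. No member was 1.5-fold or more higher, against 30.7% of the 10350 genes measured, and 3 were 1.5-fold or more lower, against 25.2%. Those 3 are paralogs rather than core subunits: Rpl22l1, Rps27l and Rpl7l1. The core genes spanned a narrow range, from Rps12, a small-subunit protein (1621 CPM in radial precursors, 1129 CPM in neurons, log2 ratio -0.52), to Rps7 (2570 and 3356 CPM, 0.38).

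At P2, 76 of 83 members were higher in neuroblasts than in stem cells and 7 lower, with a median log2 ratio of 0.40 against 0.08 over all genes. Of them 11 were 1.5-fold or more higher, where 29.0% of all 10830 genes were, and 1 was that much lower, where 27.3% were. The share past the fold was thus below the background in both directions, and the group was marked by a common direction of small size. Rps26, which lies near the mRNA exit channel of the small subunit, stood highest, at 1204 CPM in stem cells and 2049 CPM in neuroblasts (log2 ratio 0.77, 0.70 to 0.84). Rpl10, at 942 and 1539 CPM (0.71), and Rpl35, at 849 and 1384 CPM (0.71), were also among the 5 highest. Rplp1, one of the acidic proteins of the P stalk that recruits elongation factors, went the other way, at 1879 CPM in stem cells and 1439 CPM in neuroblasts (-0.39, -0.44 to -0.33).

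The progenitor clusters showed the broadest shift, although these contrasts were chosen after the class shares were seen. At E18, 80 of 83 members were higher in intermediate progenitors than in radial precursors, with a median log2 ratio of 0.43 against -0.01 over all genes. Of these, 7 were 1.5-fold or more higher (8.43% of the members), below the 19.1% of all 3579 genes measured. At P2, 83 of 83 members were higher in the Dll1/Olig2 progenitor cluster than in stem cells, with a median of 0.90 against -0.02, and 78 of them (94.0%) were 1.5-fold or more higher, where 18.1% of 7262 genes were. Over the whole group the log2 ratio was 0.42 (0.41 to 0.43) at E18 and 0.91 (0.90 to 0.92) at P2.

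At E18, Rps9, a small-subunit protein at the mRNA entry site, was among the 5 highest members, at 2922 CPM in radial precursors and 5096 CPM in intermediate progenitors (0.80, 0.71 to 0.89). Rps26 stood at 1537 and 2530 CPM (0.72). At P2 the largest ratio was that of Rps6, the substrate of the S6 kinases, at 536 CPM in stem cells and 1468 CPM in the progenitor cluster (1.45, 1.33 to 1.58). Rpl36a stood at 568 and 1376 CPM (1.28), Rps3a1 at 1299 and 3061 CPM (1.24) and Rps26 at 1204 and 2806 CPM (1.22). Rps26 was thus among the 5 highest members in both libraries, and its promoter window above carries the marked C 4 bases after the start. The core genes with the smallest P2 ratio, Rps10 at 1671 and 2360 CPM (0.50) and Rpl15 at 1575 and 2351 CPM (0.58), were higher as well.

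Neuronal classes lay below these progenitor classes. Newborn excitatory neurons at E18 were below intermediate progenitors in 81 of 83 members, 50 of them by 1.5-fold or more, where 10.8% of 7137 genes were that much lower. The 2 exceptions were Rpl7l1 and Rps19bp1. At P2 all 83 members were lower in neuroblasts than in the progenitor cluster, 33 by 1.5-fold or more, where 20.4% of 10470 genes were. Over classes with at least 40 cells, 73 of 77 core genes had their highest CPM in the E18 intermediate progenitors and 65 of 77 in the P2 progenitor cluster. This limit leaves out the 36 E18 oligodendrocyte lineage cells. With a limit of 30 cells, chosen after the data were seen, 53 of 77 core genes were highest in those cells and 23 in the intermediate progenitors. At P2, over classes of at least 40 cells, the lowest CPM fell in the stem cells for 57 core genes. It fell in maturing astrocytes for 15. Such counts of highest and lowest classes were not made over all genes. They follow from the class shares in large part and are not separate from them.

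The P2 progenitor value depended on how the cells were clustered. With a mitochondrial limit of 5% instead of 10%, the same name fell on another cluster of 74 cells, all of them cycling cells before and none among the 65, and the log2 ratio was 0.60. The 32 of the original 65 cells that also met the 5% limit had a share of 17.6%. With no cells removed as doublets the ratio was 0.71, and at a Leiden resolution of 0.5 no cluster received the name.

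**Figure D2:**
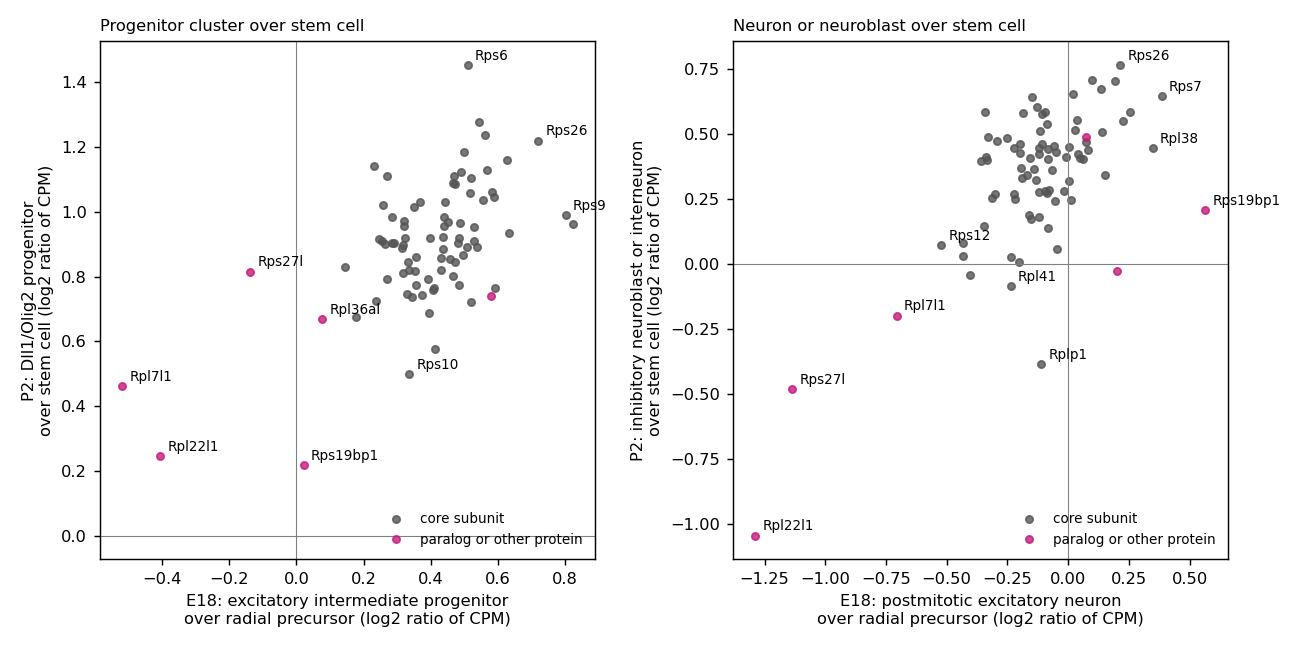
Log2 ratio of CPM for each of the 83 measured members, E18 on the horizontal and P2 on the vertical axis; grey points are core subunits and pink points paralogs or other proteins. Left, progenitor cluster over stem cell class, where all core genes lie above 0 on both axes; right, neuron or neuroblast over stem cell class, where most core genes lie left of 0 at E18 and above 0 at P2.

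Striatal projection neurons, the maturing neurons of the P2 dissection, had a log2 ratio over stem cells of 0.56, with 81 of 83 members higher and 38 of them by 1.5-fold or more, where 26.0% of 8457 genes were. Against inhibitory neuroblasts the ratio was 0.20, with 2 members 1.5-fold or more higher, where 13.6% of 10573 genes were. Those 2 were Rplp1 (1439 CPM in neuroblasts, 2400 CPM in striatal neurons, 0.74) and Rpl12, which forms the base of the P stalk (747 and 1194 CPM, 0.68). Both also had 2 of the 5 lowest ratios of neuroblasts over the progenitor cluster, where Rplp1 stood at 2999 and 1439 CPM and Rpl12 at 1544 and 747 CPM.

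The 3 stalk proteins did not share 1 pattern at P2. Rplp0, the stalk scaffold, had 1926 CPM in stem cells, 3361 CPM in the progenitor cluster and 2182 CPM in neuroblasts, and Rplp2 had 1043, 2108 and 1260 CPM. Both were higher in neuroblasts than in stem cells, whereas Rplp1 was lower. Rpsa, a small-subunit protein also known as the laminin receptor precursor, stood at 1463 CPM in stem cells, 3160 CPM in the progenitor cluster, 1962 CPM in neuroblasts and 2673 CPM in striatal neurons. At E18, Rpsa ranged from 1400 CPM in newborn neurons to 2200 CPM in cycling cells, and was thus one of the 3 core genes with their highest E18 level there among classes of at least 40 cells.

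Some of the paralogs departed from the core genes. Rpl36al and Rps27rt lay within the range of the core genes in the neuron and neuroblast ratios over stem cells. Rpl22l1, a paralog that Rpl22 is known to repress, had 1378 CPM in E18 radial precursors, 1073 in cycling cells, 1041 in intermediate progenitors, 573 in newborn, 596 in upper-layer and 485 in deep-layer neurons. Its log2 ratio of neurons over radial precursors was -1.29 (-1.39 to -1.18). At P2 it had 576 CPM in stem cells, 565 in cycling cells, 682 in the progenitor cluster, 279 in neuroblasts and 342 in striatal neurons, with a log2 ratio of neuroblasts over stem cells of -1.05 (-1.15 to -0.93). Its parent Rpl22 had 815 CPM in E18 radial precursors and 736 CPM in neurons, and 576 and 900 CPM in P2 stem cells and neuroblasts. The level of the paralog thus was lower in neuronal classes in both libraries, while that of the parent was lower at E18 and higher at P2.

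Rps27l, a paralog of Rps27 known as a p53 target, was highest in cycling cells in both libraries among classes of at least 40 cells. At E18 it had 544 CPM in radial precursors, 707 in cycling cells and 211 in deep-layer neurons. At P2 it had 267 CPM in stem cells, 473 in cycling cells, 469 in the progenitor cluster, 191 in neuroblasts and 94.1 in striatal neurons, and the levels in cycling cells and the progenitor cluster did not differ beyond counting error. The log2 ratio of neurons over radial precursors was -1.14 (-1.31 to -0.96) at E18, and that of neuroblasts over stem cells was -0.48 (-0.64 to -0.32) at P2. Rps27 itself had 2750 CPM in E18 radial precursors and 2516 CPM in neurons, and 1367 and 2080 CPM in P2 stem cells and neuroblasts. The 9 ependymal cells of the P2 library held Rps27l at 1375 CPM.

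**Figure D3:**
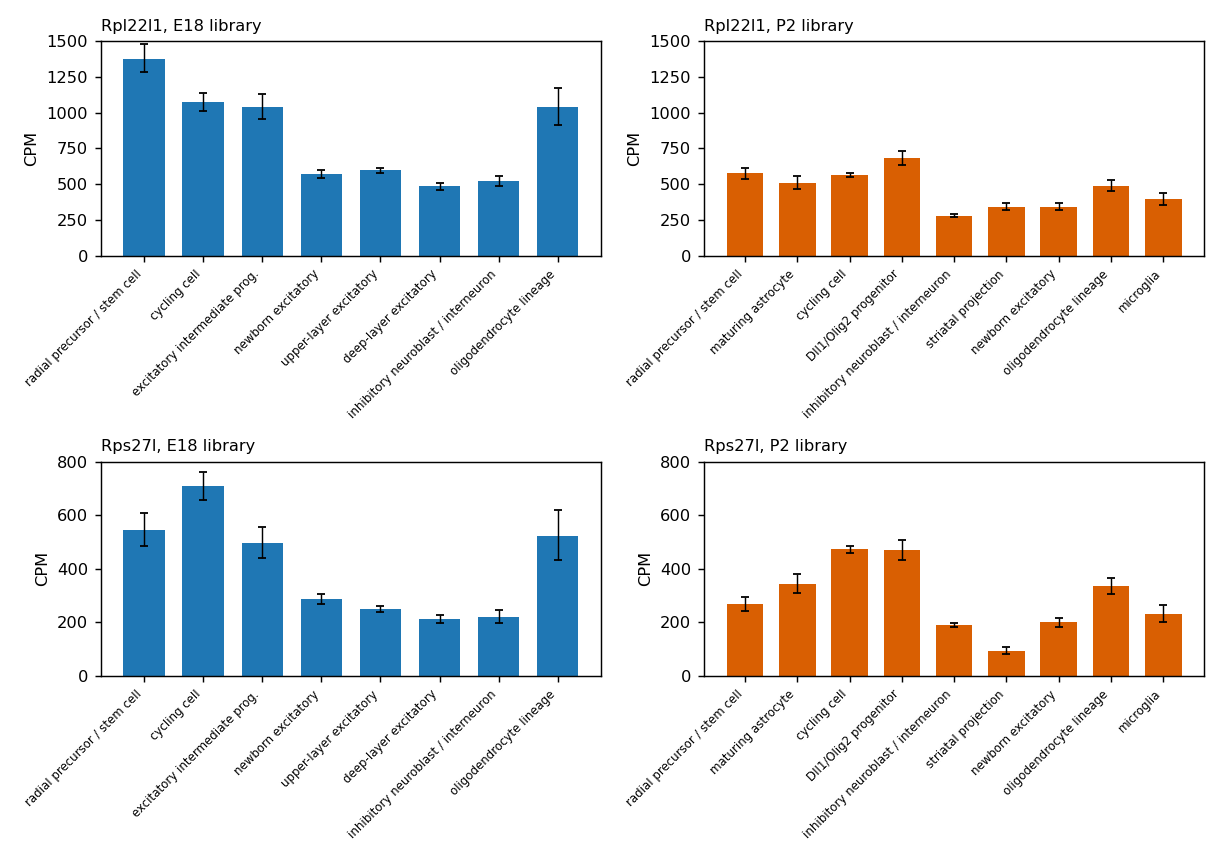
Level of Rpl22l1 (top) and Rps27l (bottom) in CPM (vertical axis) per cell class of at least 30 cells, E18 left and P2 right; bars are class sums and error bars exact 95% Poisson intervals of counting error. The neuronal classes lie below the stem and cycling classes for both genes in both libraries.

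The other paralogs and the remaining symbol were sparser. Rpl7l1, a protein tied to ribosome assembly, stood at 136 CPM in E18 radial precursors and 83.1 CPM in neurons (-0.71, -1.04 to -0.35), and at 82.8 and 72.2 CPM in P2 stem cells and neuroblasts, an interval that included 0 (-0.47 to 0.09). Rps19bp1, which encodes a binding partner of the small-subunit protein Rps19, was higher in E18 neurons, at 89.8 and 133 CPM (0.57, 0.16 to 1.00). Rpl36al, a paralog of Rpl36a, had 322 CPM in radial precursors and 371 CPM in neurons at E18, and 168 and 165 CPM in stem cells and neuroblasts at P2. Rps27rt, a copy of Rps27, had 49.3 and 51.8 CPM at E18 and 23.6 and 33.0 CPM at P2.

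Composition, the share of each member in all member UMIs of a class, varied little among core genes. Between the classes where a core gene had its largest and smallest share of member UMIs, the median fold was 1.23 at E18 and 1.36 at P2. It was 1.5-fold or more for 4 of 77 core genes at E18 and 15 of 77 at P2, against 5 of 6 and 6 of 6 of the measured paralogs and other proteins. A fold between the largest and smallest share also grows with counting error, and several of these 6 genes were sparse. Rps19bp1 had 51 UMIs in E18 radial precursors, and Rps27rt 960 UMIs over all kept E18 cells. The part of counting error in this contrast was not tested. The classes were those of at least 40 cells, 7 at E18 and 9 at P2. Only the P2 set held maturing astrocytes, oligodendrocyte lineage cells, microglia and striatal neurons, so these values are not alike between the libraries. Microglia stood apart in 4 of the named members: Rps29 had 6243 CPM in 44 microglia against 2246 CPM in stem cells, Rplp1 4098 against 1879 CPM, Rps12 3406 against 1391 CPM and Rpl12 1822 against 679 CPM. In oligodendrocyte lineage cells Rpl13 had 4733 CPM, against 2084 CPM in stem cells and 3917 CPM in the progenitor cluster, and no other class of at least 40 cells had more.

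The comparison between ages used the 4 classes with at least 40 cells in each library. The share was lower at P2 in each: 18.2% against 9.64% in stem cells, 19.4% against 13.9% in cycling cells, 15.9% against 12.1% in newborn excitatory neurons and 16.3% against 12.4% in inhibitory cells. The log2 ratios of P2 over E18 were -0.92 (-0.93 to -0.91), -0.48 (-0.49 to -0.47), -0.39 (-0.40 to -0.38) and -0.40 (-0.40 to -0.39). The stem cell ratio minus that of each other class was -0.44, -0.53 and -0.52, a difference that was not tested. In that class 65 of 83 members were 1.5-fold or more lower at P2, where 13.1% of 6207 genes were. In cycling cells the count was 33 (17.8% of 10132 genes), in newborn excitatory neurons 31 (12.9% of 8539) and in inhibitory cells 28 (19.4% of 10465). Median depth also moved with age, from 6202.5 to 18962.5 UMIs per stem cell and from 4699 to 9452 per inhibitory cell, and its part in these ratios was not tested beyond the depth-limited values in the closing section. The classes paired by name also held different cells. Radial precursor and stem cell markers summed to 11487 CPM in E18 cycling cells and 1328 CPM in P2 cycling cells, and inhibitory neuroblast markers to 1367 and 2753 CPM. In the inhibitory class interneuron markers summed to 2605 CPM at E18 and 1112 CPM at P2, and neuroblast markers to 3561 and 5640 CPM. The part of these differences in the age ratios was not tested. Libraries made with different chemistries can also differ in these genes, and the labels do not name the chemistry.

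Between the ages 61 of 83 members were lower at P2 in all 4 classes, 5 were higher in all 4 and 17 differed in direction. These counts are by the sign of the ratio, and the same count over all genes was not made. The median log2 ratio over all genes was 0.17 in stem cells and 0.11 in cycling cells. It was 0.08 in newborn excitatory neurons and 0.15 in inhibitory cells. The 5 higher members were Rpl29, Rps21, Rpl30, Rpl5 and Rps10, of which Rps10 (0.02, -0.09 to 0.13), Rpl30 (0.12, -0.01 to 0.25) and Rpl5 had stem cell intervals that included 0. Rpl29, a large-subunit protein that also binds heparin, had 310 CPM at E18 and 847 CPM at P2 in stem cells, 321 and 1244 CPM in cycling cells, 270 and 921 CPM in newborn excitatory neurons and 319 and 1144 CPM in inhibitory cells. Its log2 ratios ran from 1.45 to 1.96. Rps21 stood at 1070 and 1472 CPM in stem cells (0.46) and at 1017 and 2000 CPM in newborn excitatory neurons (0.97). Rpl5, a large-subunit protein that binds the 5S RNA and can restrain Mdm2, had 695 and 768 CPM in stem cells (0.14, -0.02 to 0.31) and 613 and 1021 CPM in inhibitory cells (0.74).

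At the other end, Rpl23a had 2950 CPM at E18 and 717 CPM at P2 in stem cells, 3459 and 1160 CPM in cycling cells, 3023 and 912 CPM in newborn excitatory neurons and 3560 and 1076 CPM in inhibitory cells. Its log2 ratios ran from -2.04 to -1.58. Rpl31 stood at 1780 and 438 CPM in stem cells (-2.02) and 1710 and 533 CPM in inhibitory cells (-1.68). Rps6 stood at 2662 and 536 CPM in stem cells (-2.31, -2.44 to -2.19), the lowest ratio of any measured member in any of the 4 classes, and at 1863 and 805 CPM in inhibitory cells (-1.21). Rpl13a stood at 1164 and 272 CPM in stem cells, and Rpl4, which lines the exit tunnel, at 2053 and 596 CPM. Rpl23a, Rpl31, Rps6 and Rpl13a each had their lowest ratio in stem cells. Rpl23a and Rpl31 (-2.02 to -1.57) differed by a like amount in the 4 classes, whereas Rps6 (-2.31 to -1.21) and Rpl13a (-2.10 to -1.09) ranged more widely. A difference of the libraries cannot be told apart from age for these members.

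**Figure D4:**
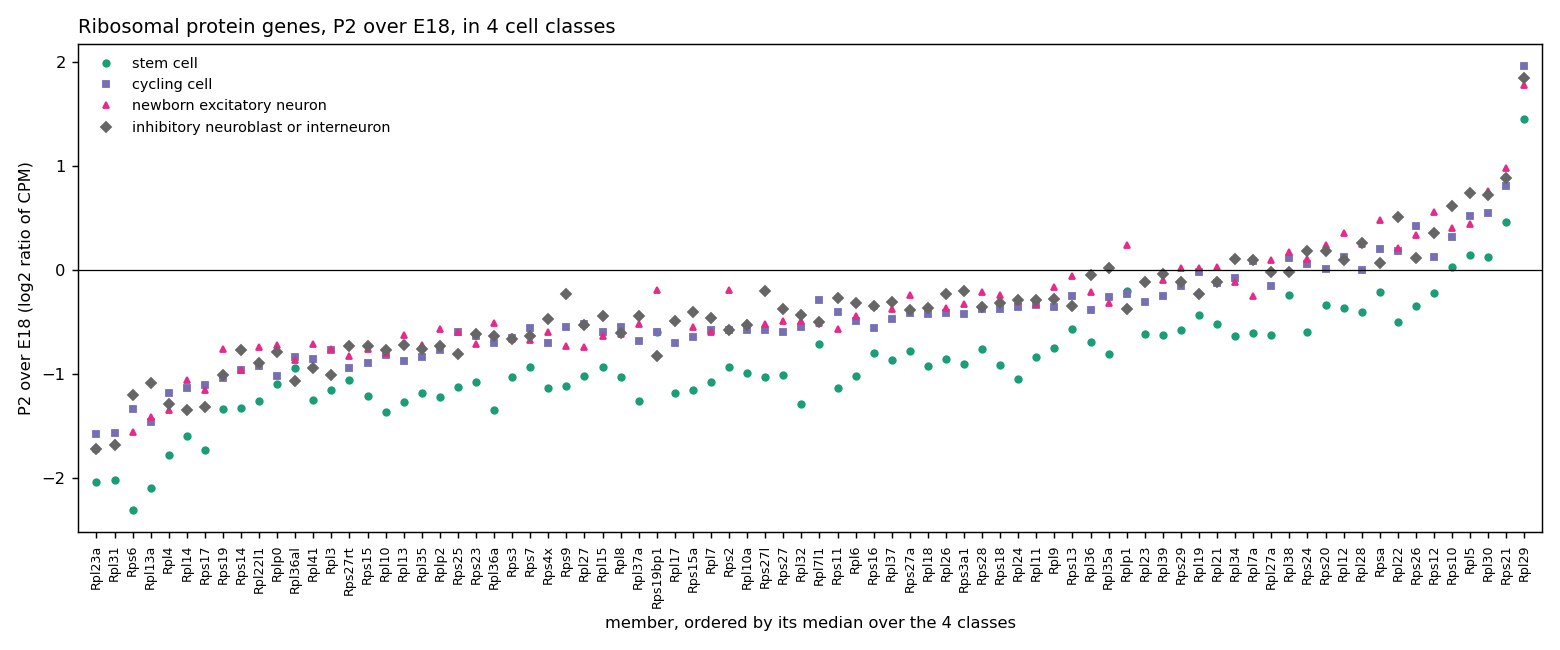
Log2 ratio of CPM, P2 over E18 (vertical axis), for 80 of the 83 measured members (horizontal axis, ordered by the median over the classes) in 4 cell classes marked by colour and shape. The order of members is similar across the classes, from Rpl23a at the low to Rpl29 at the high end, and the stem cell points lie below the others for most members.

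Other genes of translation were read beside the members from 7 lists. Of the ribosomal proteins outside the symbol rule, Rack1, a scaffold on the small subunit, had 687 CPM in P2 stem cells and 1710 CPM in the Dll1/Olig2 progenitors (1.32), and Fau 1488 and 2205 CPM (0.57). In the same contrast 22 of 28 measured ribosome assembly genes were 1.5-fold or more higher and none lower (median 0.74), and 9 of 11 elongation factor and TOP mRNA genes (median 0.88). Fbl, the nucleolar methyltransferase fibrillarin, stood at 97 and 267 CPM (1.46), Hnrnpa1, an RNA-binding protein, at 382 and 1424 CPM (1.90), and Eef1a1, the main elongation factor, at 3006 and 6350 CPM (1.08). For mitochondrial ribosomal proteins, 16 of 74 were 1.5-fold or more higher, a share near the background of 18.1%, with a median of 0.32. Of the initiation factor genes, 5 of 13 eIF3 subunits (median 0.53) and 3 of 16 others (median 0.38) were that much higher, and 1 of the others was lower.

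Ribosome assembly genes were also high in cycling cells. At P2, 17 of 30 were 1.5-fold or more higher in cycling than in stem cells and 0 lower (median 0.75), where 24.0% of 10527 genes were higher. The members in this contrast had a median of 0.53, with 31 of 83 past the fold. At E18, 13 of 25 were that much higher in cycling cells than in radial precursors and 1 lower (median 0.61), where 20.1% of 4694 genes were higher. The members had a median of 0.10 there, with 0 of 83 past the fold.

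The E18 intermediate progenitors differed in this respect. Of 19 measured ribosome assembly genes 2 were 1.5-fold or more higher and 2 lower than in radial precursors, where 19.1% of all genes were higher, with a median of 0.05, and mitochondrial ribosomal proteins had a median of -0.08. Elongation factor and TOP mRNA genes had a median of 0.49, with 4 of 11 higher past the fold against the same 19.1%: Eef2, the translocation factor, stood at 1195 and 2551 CPM (1.09) and Hnrnpa1 at 655 and 1404 CPM (1.10). Whether the 2 libraries differ in these lists was not tested. In E18 neurons over radial precursors, Eef1d, an exchange factor subunit, stood at 377 and 98 CPM (-1.95), and Eef1a2, the neuronal form of the elongation factor, at 1.76 and 69.2 CPM (5.30, 2.82 to 10.60), the lower value resting on 1 UMI.

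EYFP-positive and EYFP-negative cells of the P2 library were compared within 7 classes. EYFP-positive cells were those with at least 1 EYFP UMI. The log2 ratio of the member share in summed UMIs, positive over negative, lay between -0.06 and 0.08 in these classes. Median shares over cells were higher in positive cells in each class. They were 9.49% and 7.48% in stem cells, and 12.1% and 10.5% in newborn excitatory neurons. In maturing astrocytes they were 9.80% and 8.56%, where the summed shares went the other way, at 10.1% and 10.6%. Positive cells had the higher median UMIs in all 7 classes. The medians were 13221.5 and 4782.5 in newborn excitatory neurons, and 20761 and 14237.5 in the Dll1/Olig2 progenitor cluster. A call by 1 UMI depends on depth, and the part of depth in these ratios was not tested. In stem cells the share was 9.85% in 41 positive cells (9.79 to 9.92) and 9.35% in 37 negative cells (9.28 to 9.43), with medians of 19783 and 17549 UMIs per cell. Both lay below every other P2 class of at least 40 cells.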

How the data were processed

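Single-cell RNA was counted in 1 E18 and 1 P2 mouse library. The deposited values are raw UMI counts per gene and barcode, made by the authors with Cell Ranger 4.0.0 per the file headers, against mm10 per the submitters' processing notes. The deposited gene and barcode lists hold names only, a type recorded as other. Cells with at least 500 genes and at most 10% mitochondrial UMIs were kept, and the cells in the top 5% of Scrublet scores (scanpy 1.11.5) were removed, 156 at E18 and 144 at P2, since the automatic threshold called 42 and 5. Each library was clustered alone (2000 variable genes without the members, 30 components, 15 neighbours, Leiden resolution 1, leidenalg 0.10.2), and clusters were named from 22 marker lists. A name needed 3 detected markers, and 2 P2 clusters led by more markers of another class stayed unnamed (107 and 28 cells). An E18 cluster of 56 cells with oligodendrocyte and microglia markers was divided by cell: at least 4 detected markers of the class with more marker UMIs gave 36 oligodendrocyte lineage cells and 7 microglia, and 13 stayed unnamed. These naming rules were set after the clusters were seen. Free RNA was not removed.

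Counts were summed per class and scaled to counts per 1000000 UMIs (CPM). Shares carry exact Clopper-Pearson and log2 ratios exact conditional 95% intervals. The ratio calculation was tested on simulated data. A gene was measured with 50 UMIs over both classes. Named were the 5 highest and 5 lowest members with 100 UMIs in each contrast, the 5 with most UMIs, the P stalk, Rpsa and the paralogs with their parents, and the 2 highest and lowest genes of each list; some are not reported here, and class and age values outside that rule were chosen after they were seen. The members, lists and contrasts were chosen with earlier results of these data known. Alternatives changed 1 choice at a time.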

Additional observations from a re-analysis of the deposited data

Results flagged for a closer look

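By class, the direction of the member share from stem cells to neurons differed between the libraries. Within the E18 classes, an upper-layer cluster of 141 cells stood above the radial precursors, at 19.0% against 18.2%. The log2 ratio of all members summed was -0.11 for postmitotic excitatory neurons over radial precursors at E18 and 0.36 for inhibitory neuroblasts over stem cells at P2. Of the 86 members, 40 were lower at E18 and higher at P2 with counting intervals on opposite sides of 0. Of the 9748 genes measured in both contrasts 1.75% were, and 83 of these genes were members. Counting intervals narrow as UMIs rise, and most members are abundant, so this percentage is not a like background. No comparison with genes of like abundance was made. The difference in direction was not tested, since each age has 1 library. Age, dissection, mouse line and library cannot be told apart. Inhibitory cells over radial precursors gave -0.16 at E18, and newborn excitatory neurons over stem cells gave 0.33 at P2. These contrasts were chosen after the class shares were seen. In cells with 5000 to 15000 UMIs, the share was 18.5% in E18 radial precursors and 16.1% to 17.5% in E18 neuronal classes. It was 7.51% in 12 P2 stem cells and 12.6% in P2 neuroblasts. The part of depth was not tested further.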

How the results depend on the processing

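Directions held under all alternatives tried for the progenitor, neuron and age ratios, with 1 exception: with cycling cells in place of stem cells, the P2 neuroblast log2 ratio was -0.17. Values moved past their narrow counting intervals, and the cause was not tested. The E18 neuron ratio was -0.20 over cycling cells, -0.099 without mitochondrial and Malat1 UMIs, -0.068 with 1000 genes per cell, -0.22 and -0.12 at Leiden resolutions 0.5 and 2, -0.092 for mean cell shares, and -0.13 both without the 10 members with most UMIs and in cells of 5% or less mitochondrial UMIs with names kept (an alternative added after the data were seen). The E18 intermediate progenitor ratio was 0.39 with reclustering at a 5% mitochondrial limit, 0.47 with 1000 genes, 0.41 with doublets kept, 0.30 at resolution 0.5, 0.46 for mean shares and 0.41 in the 5% cells. The P2 neuroblast ratio was 0.41 at the 5% limit, 0.27 with doublets kept, 0.38 at resolution 2 and for mean shares, 0.75 at 5000 to 15000 UMIs (12 stem cells), 0.37 for core subunits, 0.32 with astrocytes pooled and 0.40 in the 5% cells. The P2 progenitor cluster ratio was 0.60 at the 5% limit, 0.71 with doublets kept, 0.94 at resolution 2, for mean shares and in the 5% cells, 1.18 at 5000 to 15000 UMIs and 0.90 without the top 10.

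In the same order of settings, the P2 over E18 ratio of stem cells was -0.87 without mitochondrial and Malat1 UMIs, -0.98 at the 5% limit, -0.86 with 1000 genes, -0.82 with doublets kept, -0.996 and -0.94 at resolutions 0.5 and 2, -1.30 at 5000 to 15000 UMIs, -0.89 without the top 10 and -1.01 in the 5% cells. That of cycling cells was -0.45, -0.49, -0.75 and -0.51 in the first 4 of these, -0.52 at resolution 2, -0.58 at 5000 to 15000 UMIs, -0.46 without the top 10 and -0.50 in the 5% cells. That of newborn excitatory neurons was -0.35, -0.47 and -0.38 in the first 3, -0.38 at resolution 0.5, -0.42 for mean shares, -0.35 without the top 10 and -0.48 in the 5% cells. That of inhibitory cells was -0.36 and -0.43 in the first 2, -0.39 with doublets kept, -0.36 at resolution 0.5, -0.39 for mean shares, -0.34 without the top 10 and -0.45 in the 5% cells. Class shares kept E18 radial precursors between 14.6% and 19.7% and P2 stem cells between 7.51% and 10.4%, the lowest of the named P2 classes compared (not microglia or ependymal cells) in all 11 other settings in which it was recomputed; the 7.51% rests on 12 cells at 5000 to 15000 UMIs. Resolution 0.5 gave no E18 cycling class and no P2 progenitor cluster of that name, so the ratios that need them have no value there. No paired analysis was possible because each age has 1 library.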
